A study of Drosophila melanogaster with 20 samples.

Results

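Phototransduction genes of *Drosophila* were followed across eye-antennal imaginal discs in which Atonal (Ato) or Senseless (Sens) had been raised or Ato had been lost. The set was chosen by name and holds 10 genes, *Gbeta76C*, *norpA*, *rdgA*, *inaC*, *inaD*, *trp*, *Arr1*, *Arr2*, *ninaC* and *chp*. A gene was measured where a probe set of the array named it and no other gene, which left 8 of the 10 with 11 probe sets, out of 11982 genes measured in all. No probe set naming *norpA* or *ninaC* was analysed here. *rdgA* had 4 probe sets, and the one with the highest mean over the arrays stood for it.

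The 20 arrays came from larvae of 8 lines in the third instar, and each value is a log2 expression level made with RMA, so a difference of 1 is a 2-fold difference. Ato gain of function (GOF) was 3 arrays of Gal4/7 x UASato and 3 of atoGal4 x UASato, in which a Gal4 driver switches on an *ato* transgene. Ato loss of function (LOF) was 3 arrays of ato-/- larvae, Sens GOF was 3 arrays of atoGal4 x UASsens, and the 8 controls were 2 arrays each of Gal4/7, atoGal4, UASato and the wild type cantonS. Every line was reared at 18 °C and spent the last 24 hours before dissection at 28 °C. The labels call the arrays of a line biological repeats. By the study's methods the mutant larvae came from an *ato*1/hshid stock that was heat-shocked on consecutive days, a treatment stated for no other line, so that the mutation and the heat shock cannot be told apart in its values. No array of UASsens without a driver was among the controls. The atoGal4 driver acts in cells that express *ato*, where the transgene adds to the gene's own transcript, whereas the cells in which Gal4/7 acts are not given in the sources used here.

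In a fly photoreceptor, light turns a rhodopsin into metarhodopsin, which activates a Gq protein and through it the phospholipase C NorpA. The breakdown of the membrane lipid PIP2 that follows opens the TRP and TRPL cation channels, and protein kinase C, diacylglycerol kinase and the arrestins bring the response to an end. All of this takes place in the rhabdomere, a stack of microvilli that is built in the pupa. In the late larva the eye disc holds photoreceptors that were recruited only recently behind the morphogenetic furrow, beginning with R8, the cell that Ato specifies. Most rhodopsins and many other proteins of the cascade are known to appear later, in the pupal retina.

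Of the 8 genes measured, *inaC* and *chp* were called higher with Gal4/7 driving *ato* and lower in ato-/-. The other 6 were called in no comparison of an Ato line with the 8 controls. *inaC* encodes the eye form of protein kinase C, and *chp* encodes Chaoptin, a cell surface protein of photoreceptors that holds the microvilli of the rhabdomere together. With Gal4/7 driving *ato*, *inaC* was 3.24-fold and *chp* 3.02-fold higher than in the controls. Without *ato*, *inaC* was 10.1-fold and *chp* 6.19-fold lower. Every array of both perturbed lines lay outside the range of the 8 control arrays for both genes. With atoGal4 driving *ato* neither gene was called in limma. The log2 differences there were 0.86 for *inaC* (adjusted p = 0.13) and 0.20 for *chp* (adjusted p = 0.92).

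**Figure D1:**
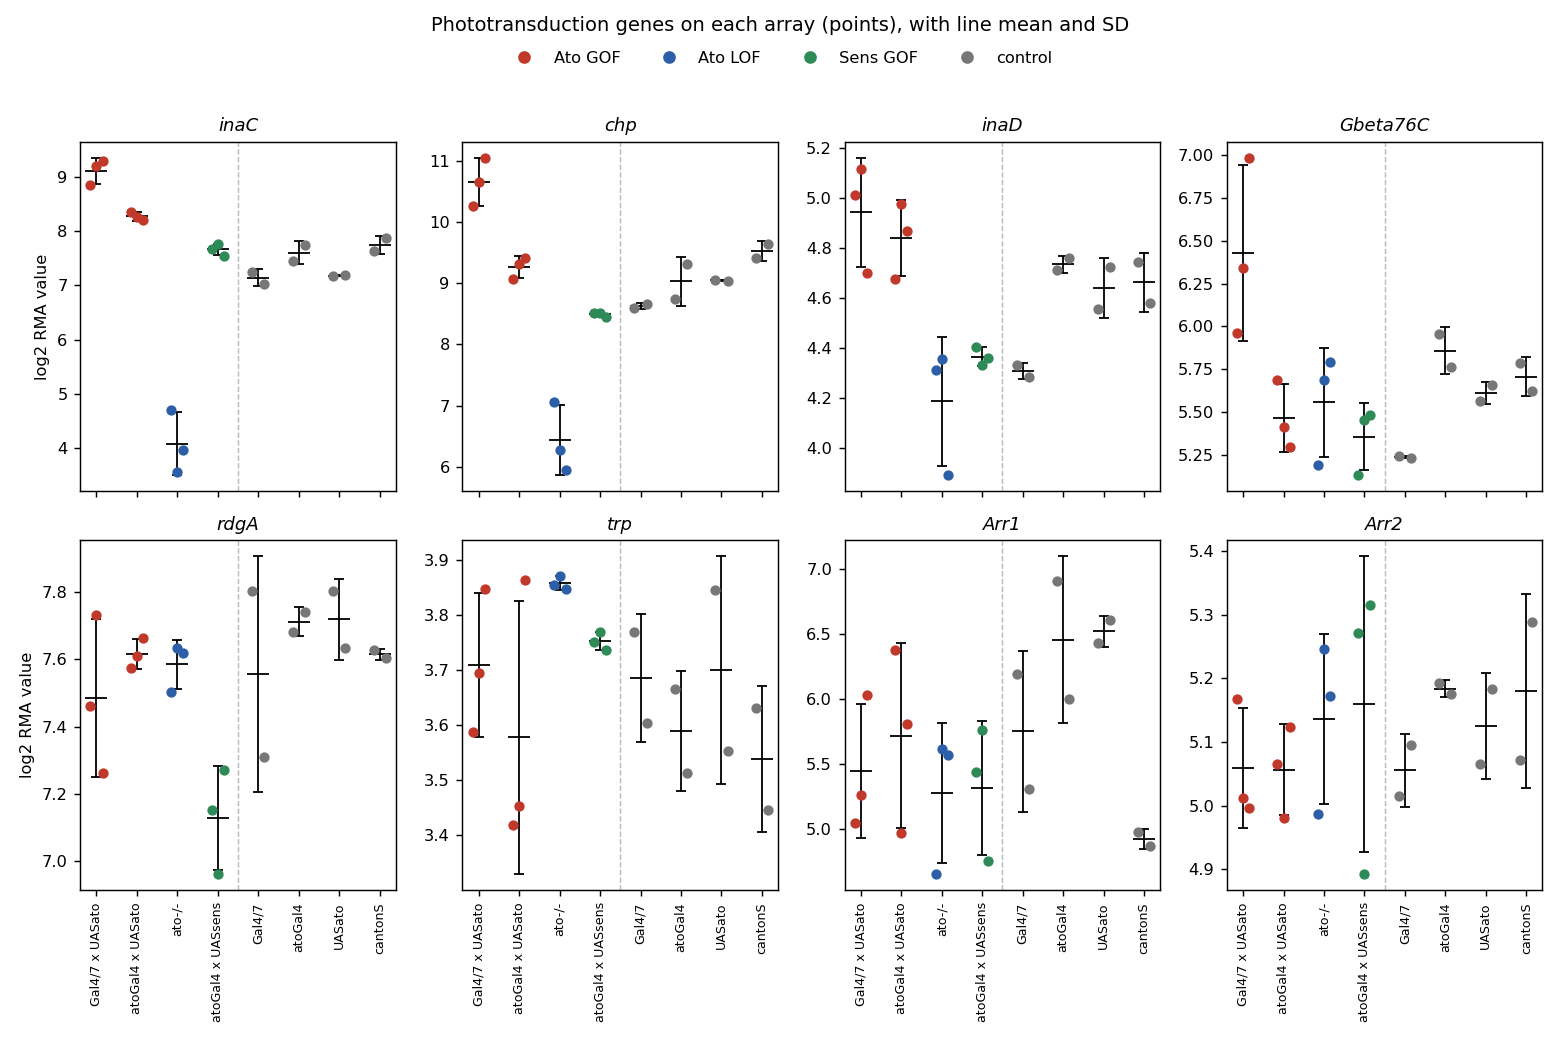
Log2 RMA value of the 8 measured phototransduction genes (y axes, each with its own range) on every array of the 8 lines (x axes, perturbed lines left of the dashed line and controls right of it). Points are arrays, horizontal bars are line means and error bars are SD. *inaC* lay between 8.85 and 9.29 in Gal4/7 x UASato, between 3.55 and 4.71 in ato-/- and between 7.03 and 7.87 in the controls, while *Arr2* lay between 4.89 and 5.31 on all 20 arrays.

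The value of *inaC* was 8.85, 9.21 and 9.29 on the 3 arrays of Gal4/7 x UASato and 8.36, 8.27 and 8.20 on those of atoGal4 x UASato. It was 4.71, 3.55 and 3.97 in ato-/- and 7.68, 7.77 and 7.55 in atoGal4 x UASsens, against 7.03, 7.35 and 7.87 as the lowest, median and highest of the 8 controls. All 6 Ato GOF arrays were above every control and all 3 mutant arrays below every control, whereas the Sens GOF arrays lay among the controls. In limma, with p-values adjusted by Benjamini and Hochberg over all probe sets and a gene called at an adjusted p under 0.05, *inaC* rose by 1.70 (SE 0.18, adjusted p = 0.00049) with Gal4/7 and by 1.28 (SE 0.20, adjusted p = 0.0065) over both drivers. With atoGal4 alone its difference from the controls was 0.86 (SE 0.17), above every control but short of the threshold (adjusted p = 0.13). It fell by 3.34 in ato-/- (SE 0.24, adjusted p = 1.2e-05). The mutant values came close to those of *trp* (3.42 to 3.87 over all arrays), which lay in the lowest 15.3% of probe sets. The size of this fall, 10.1-fold, is therefore less certain than its direction.

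For *chp* the arrays gave 10.26, 10.66 and 11.05 in Gal4/7 x UASato and 9.07, 9.32 and 9.41 in atoGal4 x UASato. They gave 7.06, 6.28 and 5.95 in ato-/- and 8.51, 8.52 and 8.45 in atoGal4 x UASsens, against a lowest, median and highest of 8.60, 9.05 and 9.65 in the controls. The 3 arrays of Gal4/7 x UASato were the highest of all 20, those of atoGal4 x UASato lay among the controls, and both the mutant and the Sens GOF arrays were below every control. The increase with Gal4/7 was 1.59 (SE 0.24, adjusted p = 0.0042) and the decrease in ato-/- was called at an adjusted p of 0.00016, with a log2 difference of -2.63 (SE 0.27). Over both drivers the difference was 0.90 (SE 0.30, adjusted p = 0.22), and in Sens GOF it was -0.57 (SE 0.21, adjusted p = 0.17), neither of them called. Of the 3 mutant arrays, replicate 1 had the highest value of *inaC* and of *chp*.

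The 2 genes also varied together among arrays. Over the 20 arrays *chp* and *inaC* had a Pearson r of 0.95, which in part reflects the distance of the 3 mutant arrays from the rest. Over the 17 arrays without them r was 0.85, and over the 20 deviations from the line means it was 0.74. *inaD* had an r of 0.73 with *inaC* and 0.80 with *chp* over the 20 arrays, but only -0.09 and 0.18 over the deviations from the line means. All probe sets of an array share its hybridization and its normalization, so these values describe the arrays and are no test.

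**Figure D2:**
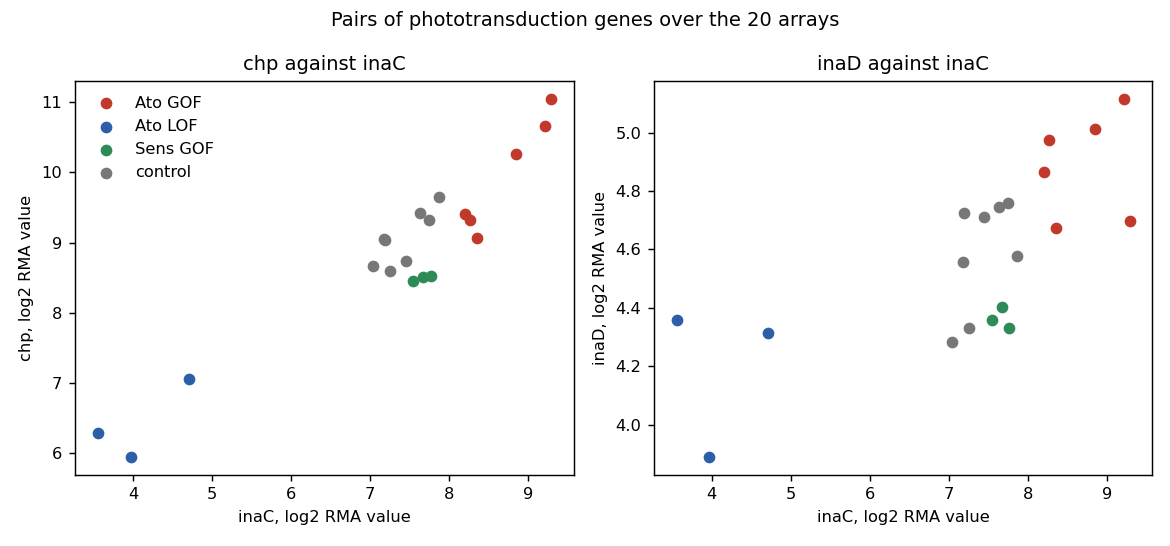
*chp* (left panel, y axis) and *inaD* (right panel, y axis) against *inaC* (x axes), in log2 RMA values, with 1 point for each of the 20 arrays coloured by group. The mutant arrays form a separate cluster at the low end of *inaC*, and the arrays of Gal4/7 x UASato hold the highest values of *chp*.

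*Gbeta76C* encodes the β subunit of the G protein of the eye. Its arrays read 5.96, 6.34 and 6.98 in Gal4/7 x UASato, against a lowest, median and highest of 5.23, 5.64 and 5.96 in the controls. All 3 were above every control, the lowest of them by little, and the difference of 0.83 (SE 0.21) was not called (adjusted p = 0.081). It was called in 3 of 21 alternatives. Among these, it was 1.06 without replicate 1 of Gal4/7 x UASato (adjusted p = 0.030). In atoGal4 x UASato the values were 5.68, 5.41 and 5.30, in ato-/- they were 5.19, 5.69 and 5.79, and in atoGal4 x UASsens they were 5.13, 5.45 and 5.49. These 3 lines overlapped the controls, with differences of -0.14 (SE 0.15), -0.05 (SE 0.17) and -0.25 (SE 0.15).

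*rdgA* encodes the eye diacylglycerol kinase, which turns diacylglycerol into phosphatidic acid and whose loss leads to degeneration of the retina. Its brightest probe set, 1641349_at, read 7.15, 6.96 and 7.27 in atoGal4 x UASsens, 7.50, 7.63 and 7.62 in ato-/-, 7.58, 7.61 and 7.66 in atoGal4 x UASato and 7.46, 7.73 and 7.26 in Gal4/7 x UASato. The controls ran from 7.31 over a median of 7.66 to 7.80. All 3 Sens GOF arrays were below every control, with a log2 difference of -0.52 (SE 0.11, adjusted p = 0.023), and *rdgA* was the only one of the 8 genes called in Sens GOF. The other 3 probe sets of the gene gave -0.31 (1626192_at, adjusted p = 0.32), -0.30 (1635851_at, adjusted p = 0.41) and -0.05 (1628730_at, adjusted p = 0.85), so the call rests on 1 of 4 probe sets. It was also lost without replicate 1 of the Sens GOF arrays (adjusted p = 0.10) and without replicate 2 (adjusted p = 0.14). In ato-/- the probe sets differed in another way, with 1626192_at below every control at -0.55 (SE 0.17, adjusted p = 0.056) and 1641349_at at -0.07 (SE 0.10, adjusted p = 0.72).

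**Figure D3:**
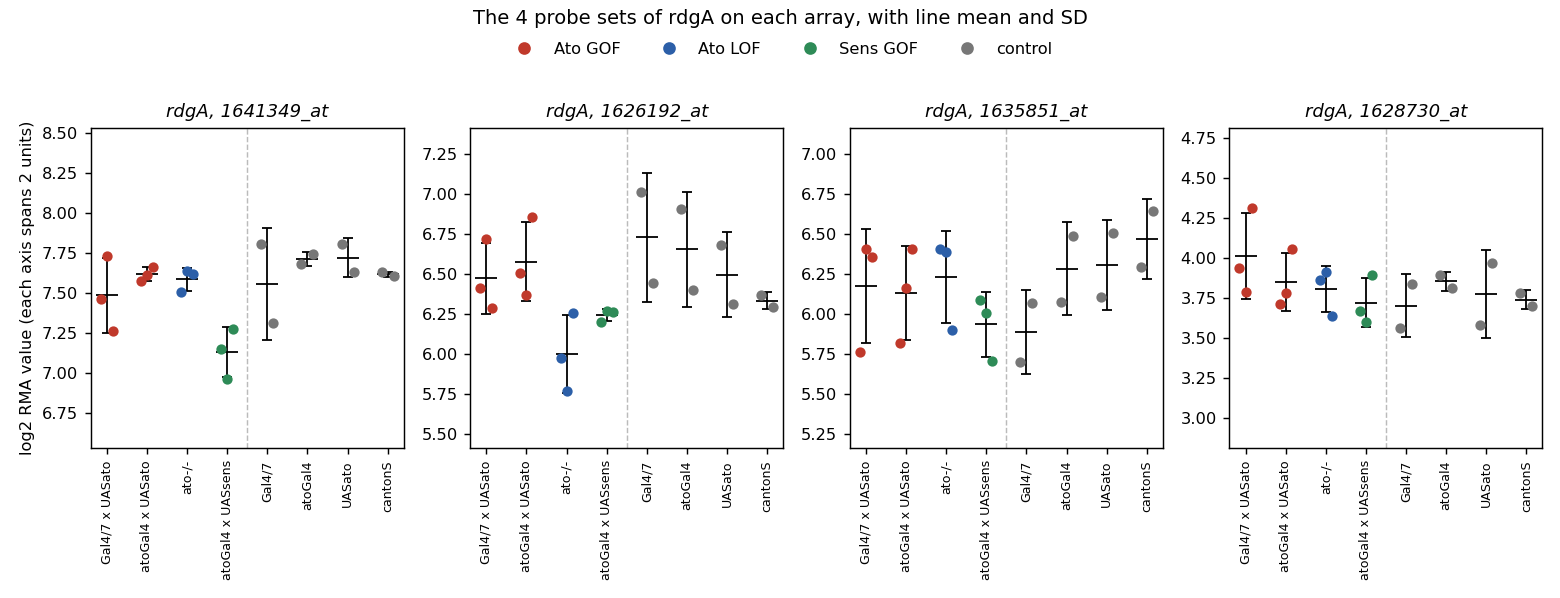
Log2 RMA value (y axes, each spanning 2 units) of the 4 probe sets of *rdgA* on every array of the 8 lines (x axes, perturbed lines left of the dashed line). Points are arrays, horizontal bars are line means and error bars are SD. The 3 atoGal4 x UASsens arrays lie below the controls at 1641349_at and 1626192_at and among them at the other 2.

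*inaD* encodes the PDZ scaffold that gathers TRP, NorpA and protein kinase C into a complex, and *trp* encodes the main light-activated channel. *inaD* read 5.01, 5.12 and 4.70 in Gal4/7 x UASato, 4.67, 4.98 and 4.87 in atoGal4 x UASato, 4.31, 4.36 and 3.89 in ato-/- and 4.40, 4.33 and 4.36 in atoGal4 x UASsens. Its controls ran from 4.28 to 4.76 with a median of 4.64, and every perturbed line overlapped them. The ato-/- and Sens GOF arrays did so only at the low end, held by both Gal4/7 control arrays (4.33 and 4.28), and the Ato GOF lines only at the high end, with lowest values of 4.70 and 4.67. The differences were 0.36 (SE 0.13) with Gal4/7, 0.25 (SE 0.12) with atoGal4 and -0.40 (SE 0.13, adjusted p = 0.070) in ato-/-, none of them called. The decrease in ato-/- was called in 3 of 20 alternatives. Among these, it was -0.44 without replicate 2 of the Gal4/7 controls (adjusted p = 0.039). *trp* lay in the lowest 15.3% of probe sets by mean level and moved little, between 3.42 and 3.87 over all 20 arrays. The 3 mutant arrays read 3.86, 3.87 and 3.85, against 3.45, 3.62 and 3.85 as the lowest, median and highest of the controls. They were narrowly above every control, with a difference of 0.23 (SE 0.08, adjusted p = 0.096) that was called only without replicate 1 of UASato (0.26, adjusted p = 0.046).

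The arrestins bind activated metarhodopsin and uncouple it from the G protein, Arr2 being the more abundant in the adult eye. *Arr2* was flat, with line means within 5.06 to 5.18 and differences from the controls of at most 0.08 in size. *Arr1* spread widely within and between lines. It read 5.04, 5.26 and 6.03 in Gal4/7 x UASato, 6.38, 4.96 and 5.80 in atoGal4 x UASato, 4.65, 5.61 and 5.56 in ato-/- and 5.44, 5.76 and 4.75 in atoGal4 x UASsens, against a lowest, median and highest of 4.87, 6.09 and 6.91 in the controls. The perturbed lines all overlapped the controls. Among the controls, UASato (mean 6.52) and atoGal4 (mean 6.45) were high and cantonS (mean 4.92) was low. With an SE of 0.44 in ato-/-, where the difference was -0.64, a change of the size of its own spread was not detectable in *Arr1*.

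Set against all 11982 genes, the share of the 8 genes called was as follows. With Gal4/7 driving *ato*, 2 of 8 were called higher and 0 lower, where 1.96% of all genes were called higher and 0.526% lower. With atoGal4, 0 of 8 were called in limma, where 0.0835% of all genes were called higher and 0.00835% lower. The single one under an unadjusted p of 0.05 was *inaC*, where 1002 of the 11982 genes were under it, and a t-test with equal variances also called none. Over both drivers 1 of 8 was called higher and 0 lower (0.943% and 0.284% of all genes). In ato-/- 2 of 8 were called lower, where 10.1% of all genes were, and 0 of 8 higher, where 6.34% were.

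The median of the 8 differences was 0.22 with Gal4/7, -0.04 with atoGal4 and -0.23 in ato-/-, beside medians of 0.01, 0.01 and -0.02 over all genes. The median thus stayed near that of all genes with atoGal4, and *inaC* and *chp* stood well away from it in the Gal4/7 line and in the mutant. These comparisons share the same 8 control arrays, so the values are given side by side and are not separate evidence of one another.

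**Figure D4:**
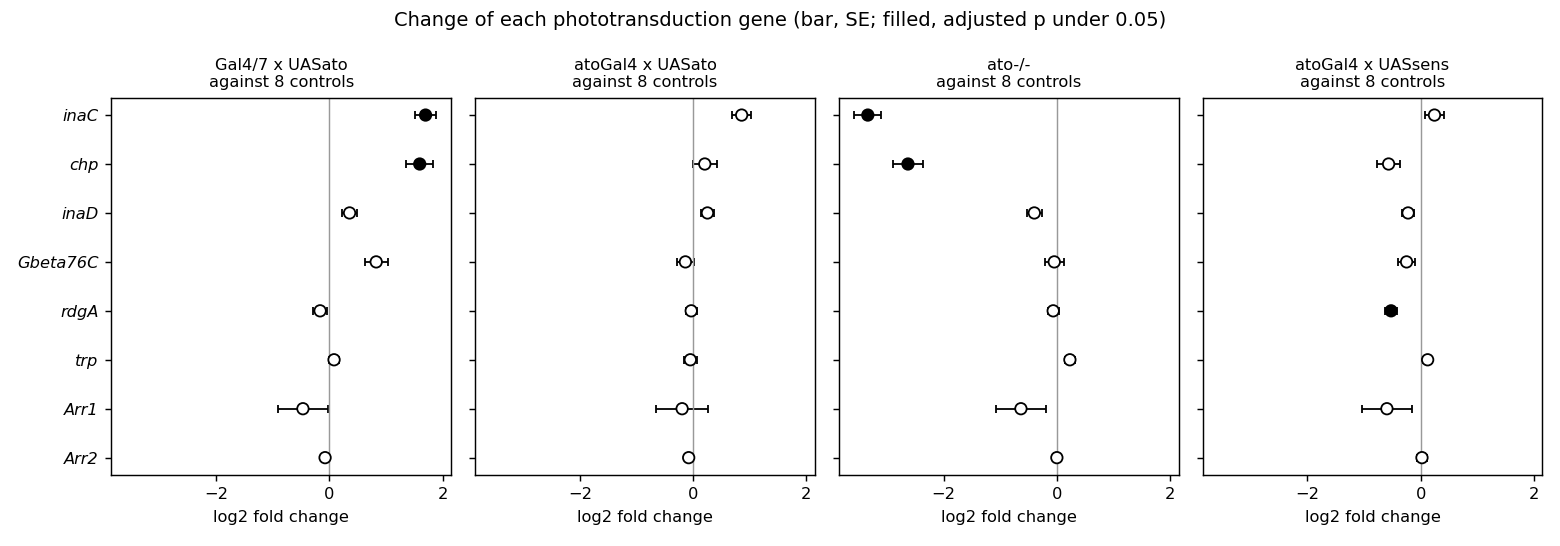
Log2 fold change of each gene (y axis) in the 4 perturbed lines (panels) against the 8 control arrays, with SE as bars and filled symbols for an adjusted p under 0.05 in limma. *inaC* and *chp* lie at 1.70 and 1.59 with Gal4/7 and at -3.34 and -2.63 in ato-/-, *rdgA* is filled at -0.52 in atoGal4 x UASsens, and no symbol is filled for atoGal4 x UASato.

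In Sens GOF 1 of 8 genes was called lower and 0 higher, where 2.21% of all genes were called lower and 1.70% higher. Replicates 1 and 2 of this line were closer to each other than any other pair of one line, with r = 0.9985 over all probe sets and a root mean square difference of 0.149, against 0.325 to 0.759 for the other pairs. Whether they differ by more than technical noise could not be tested on these values, and results that use them are given also with the pair averaged to 1 array. Averaged, *rdgA* was at -0.49 with an adjusted p of 0.12, and 0 of 8 genes were called lower.

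Sens and Ato driven by the same atoGal4 line could be compared directly, which asks where gain of the one gene and gain of the other left different levels. In atoGal4 x UASsens, against atoGal4 x UASato, 4 of 8 genes were called lower and 0 higher, where 3.74% of all genes were called lower and 2.12% higher. *chp* was lower by -0.77 (SE 0.10, adjusted p = 0.015), *inaC* by -0.61 (SE 0.09, adjusted p = 0.019), *rdgA* by -0.49 (SE 0.10, adjusted p = 0.041) and *inaD* by -0.47 (SE 0.10, adjusted p = 0.043), each as a log2 difference. For each of the 4, all 3 Sens GOF arrays lay below all 3 atoGal4 x UASato arrays. The calls did not last when Sens GOF replicates 1 and 2 were averaged, with sizes from -0.45 to -0.78 and adjusted p from 0.071 to 0.15, nor without either of these replicates or without replicate 2 of atoGal4 x UASato, where 0 were called. Without replicate 1 of atoGal4 x UASato 1 was called, without its replicate 3 there were 2, and without Sens GOF replicate 3 *inaD* alone was lost. The median of the 8 differences was -0.44, beside -0.01 over all genes. Markers of other cells differed in the same comparison, with all 4 muscle markers measured higher under an unadjusted p of 0.05 and 1 of them called (median 2.12), and 1 of 5 hemocyte markers called higher. Neuronal and retinal genes differed as well. Of 5 neuronal markers 3 were called lower (median -0.73). Of 18 genes of early retinal differentiation 9 were called lower (0 to 13 under the alternatives) and 1, *sens*, higher (median -0.55). The part of all these genes in the differences was not tested.

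Both Ato lines were also set against each other, each relative to its own driver line, since Gal4/7 and atoGal4 may differ in where and how strongly they act. The increase of *inaC* with Gal4/7 exceeded that with atoGal4 by 1.30 (SE 0.22), that of *chp* by 1.79 (SE 0.34) and that of *Gbeta76C* by 1.58 (SE 0.37), but none of the 3 was called (adjusted p = 0.093, 0.14 and 0.25). In limma 0 of 8 genes were called in either direction, where 0.0751% of all genes were called higher and 0.00835% lower. Under an unadjusted p of 0.05 there were 4, all higher with Gal4/7, where 774 of the 11982 genes were higher and 294 lower at that p, and a t-test with equal variances called none of the 8. The difference in *inaC* was called without replicate 1 of Gal4/7 x UASato (1.43, adjusted p = 0.027) and without replicate 1 of the Gal4/7 controls (1.41, adjusted p = 0.031).

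The lines could be ordered by their mean *inaC*, which was 9.12 in Gal4/7 x UASato, 8.27 in atoGal4 x UASato, 7.75 in cantonS, 7.66 in atoGal4 x UASsens, 7.60 in atoGal4, 7.18 in UASato, 7.15 in Gal4/7 and 4.08 in ato-/-. The arrays of the 2 Ato GOF lines did not overlap each other or any other line, and neither did those of ato-/-, while cantonS, atoGal4 x UASsens and atoGal4 overlapped their neighbours, as did UASato and Gal4/7. For *chp* the order was 10.66 in Gal4/7 x UASato, 9.53 in cantonS, 9.27 in atoGal4 x UASato, 9.05 in UASato, 9.03 in atoGal4, 8.63 in Gal4/7, 8.49 in atoGal4 x UASsens and 6.43 in ato-/-. Here the wild type came second, and of the neighbours in this order only UASato and atoGal4 overlapped. Further apart in the order, atoGal4 x UASato (9.07 to 9.41) also overlapped its driver line atoGal4 (8.74 to 9.32). An F-test of limma over the 4 control lines called 0 of 8 genes, where 0.818% of all genes were called, and 5 of 8 were under an unadjusted p of 0.05, where 1356 of the 11982 genes were. The largest range of control line means was 1.60, in *Arr1*.

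Further genes of the pathway were read from a list of 32, of which 21 had a probe set of their own. The opsin genes *ninaE*, *Rh2*, *Rh3*, *Rh4*, *Rh5* and *Rh6* were not among the 21. With Gal4/7 driving *ato*, 2 of 21 were called higher and 0 lower, where 1.96% and 0.526% of all genes were. The larger of the 2 was *rdgC*, which encodes the phosphatase that removes phosphate from rhodopsin. *rdgC* read 8.88, 9.70 and 10.28 in Gal4/7 x UASato and 6.94, 7.35 and 6.84 in atoGal4 x UASato, against a lowest of 5.82 and a highest of 6.90 in the controls. Its arrays with Gal4/7 were all far above the controls, by 3.21 (SE 0.29, adjusted p = 0.00018) or 9.25-fold, a larger change than that of *inaC* or *chp*, while with atoGal4 1 of the 3 lay within the controls and the difference of 0.63 (SE 0.22) was not called. The gap between the drivers in *rdgC*, 3.10 (SE 0.51), was not called either (adjusted p = 0.089). The other gene was *rdgB*, which encodes the phosphatidylinositol transfer protein of photoreceptors, at 0.50 (SE 0.10, adjusted p = 0.020). That call was lost without any 1 of the 3 Gal4/7 x UASato arrays, at 0.46, 0.53 and 0.52 (adjusted p = 0.093, 0.091 and 0.086).

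In ato-/- 4 of the 21 were called lower and 1 higher, where 10.1% and 6.34% of all genes were. *ninaB*, the carotenoid oxygenase that makes the precursor of the chromophore, read 5.33, 5.68 and 4.78 in ato-/-, against 6.25 to 6.87 in the controls. All 3 were below every control, by a log2 difference of -1.35 (SE 0.19, adjusted p = 0.0012). *rdgC* was lower by -1.01 (SE 0.23, adjusted p = 0.016), *Galphaq*, the α subunit of the G protein, by -0.57 (SE 0.13, adjusted p = 0.018) and *crb*, an apical protein of the rhabdomere stalk and of epithelia, by -0.40 (SE 0.11, adjusted p = 0.033), and *rdgB* was higher by 0.39 (SE 0.10, adjusted p = 0.024). Set against cantonS alone, none of the 5 was called (adjusted p = 0.13, 0.11, 0.061, 0.50 and 0.091, in the order *ninaB*, *rdgC*, *Galphaq*, *crb* and *rdgB*), and all calls but that of *ninaB* depended on single arrays. Without replicate 1 or 2 of ato-/- neither *rdgC* (adjusted p = 0.085 and 0.083) nor *Galphaq* (0.077 and 0.084) was called, without any 1 of the 3 mutant arrays *rdgB* was not (0.058, 0.076 and 0.092), and *crb* was not without any mutant array, either UASato array, replicate 1 of atoGal4 or replicate 2 of cantonS (0.052 to 0.12). The calls of *inaC* and *chp* in ato-/- held against cantonS alone, with adjusted p of 0.013 and 0.018.

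Over both drivers and with atoGal4 alone 0 of the 21 were called in limma, with 4 and 1 under an unadjusted p of 0.05, where 1603 and 1002 of the 11982 genes were, and none by the t-test. In Sens GOF 0 of 21 were called, with 4 under an unadjusted p of 0.05, where 2379 of all genes were, and none by the t-test. In atoGal4 x UASsens, against atoGal4 x UASato, *rdgC* was called lower by -0.87 (SE 0.14, adjusted p = 0.024), a call lost with Sens GOF replicates 1 and 2 averaged (adjusted p = 0.097) and without Sens GOF replicate 1 (0.11), its replicate 2 (0.089) or replicate 1 of atoGal4 x UASato (0.064). The channel gene *trpl*, which encodes the partner of TRP, was at -0.06 with Gal4/7, 0.06 in ato-/- and -0.20 in Sens GOF, none of them called.

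**Figure D5:**
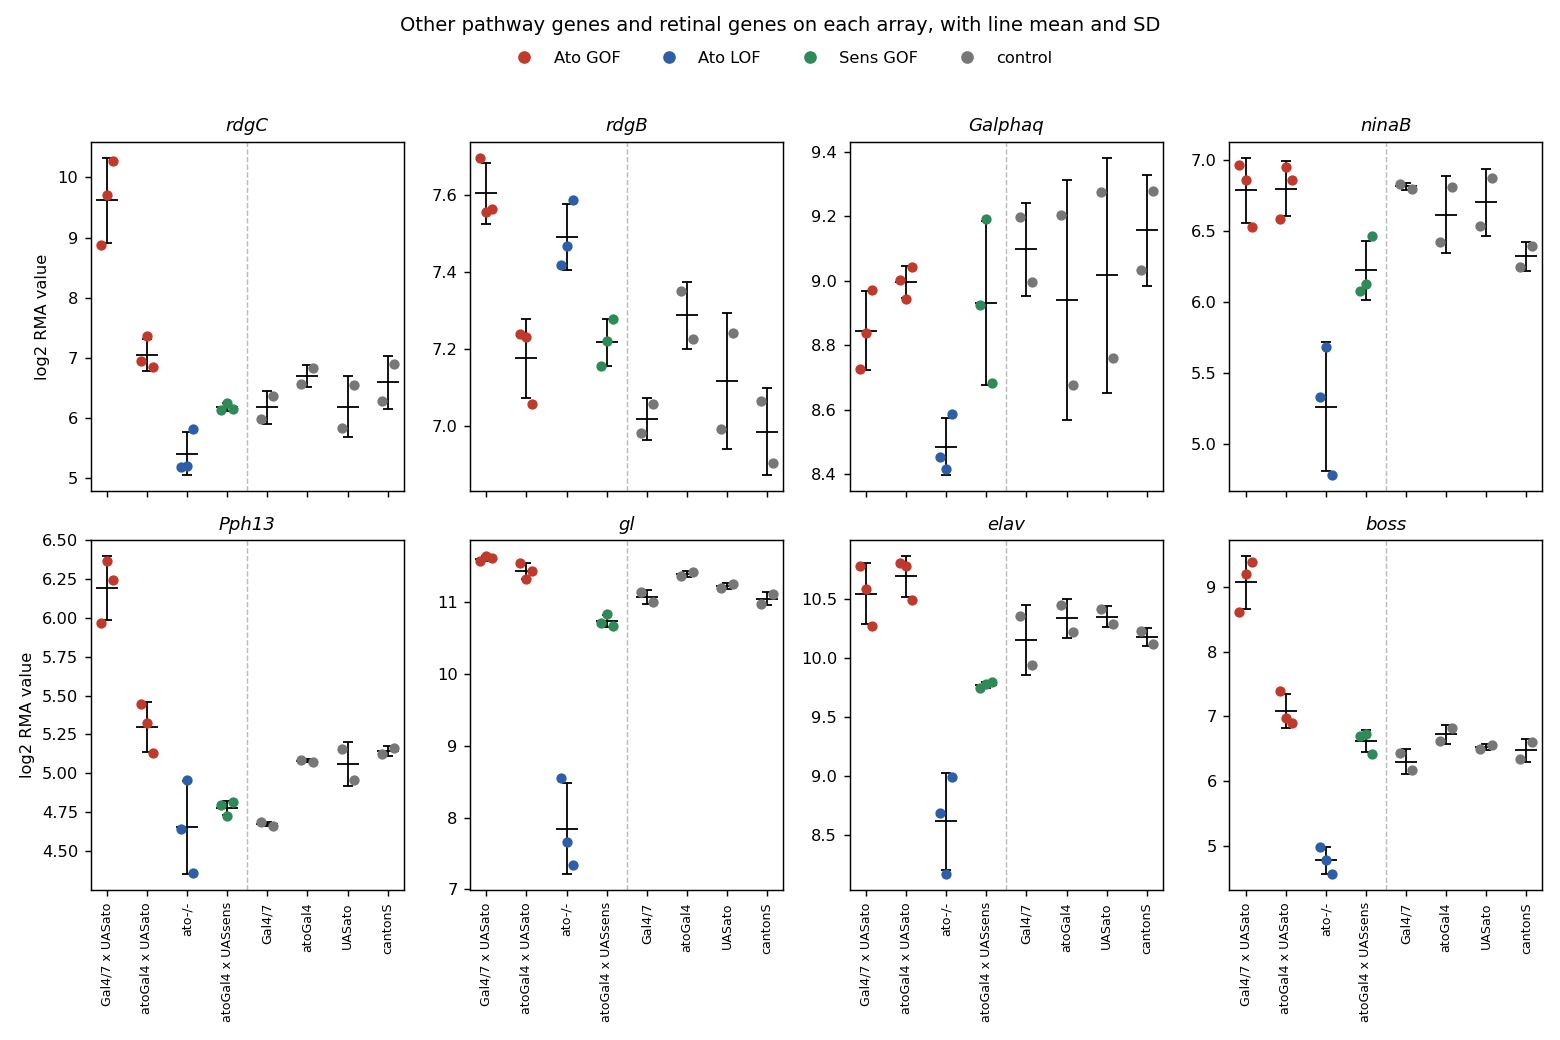
Log2 RMA value (y axes, each with its own range) of 4 other genes of the pathway (upper panels) and of 4 retinal genes (lower panels) on every array of the 8 lines (x axes, perturbed lines left of the dashed line). Points are arrays, horizontal bars are line means and error bars are SD. *rdgC* lies between 8.88 and 10.28 in Gal4/7 x UASato and at most at 6.90 in the controls, and *gl* lies between 7.34 and 8.55 in ato-/- and at 10.97 or above in the controls.

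Genes that mark the retina and its neurons were read beside the phototransduction genes. *Pph13*, a homeodomain factor known to act on phototransduction genes in photoreceptors, was singled out after its values had been seen. It read 5.97, 6.37 and 6.24 in Gal4/7 x UASato, against 4.66 to 5.16 in the controls, and was higher by 1.20 (SE 0.13, adjusted p = 0.00058). In atoGal4 x UASato it read 5.45, 5.32 and 5.13 and overlapped the controls, with a difference of 0.31 (SE 0.13, adjusted p = 0.62), and in ato-/- the difference was -0.34 (SE 0.15, adjusted p = 0.16).

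*gl*, the zinc finger factor that photoreceptors need to mature, read 8.55, 7.65 and 7.34 in ato-/-, against 10.97 to 11.42 in the controls, lower by -3.33 (SE 0.20, adjusted p = 4.5e-06). It was lower in Sens GOF by -0.45 (SE 0.10, adjusted p = 0.033). *elav*, which marks every postmitotic neuron, was lower in ato-/- by -1.64 (SE 0.16, adjusted p = 0.00011) and in Sens GOF by -0.48 (SE 0.10, adjusted p = 0.026). Both Sens GOF calls were lost with replicates 1 and 2 averaged (adjusted p = 0.12 for *gl* and 0.13 for *elav*) and without any 1 Sens GOF array (0.095 to 0.145 for *gl* and 0.075 to 0.13 for *elav*), that of *gl* also without either UASato array, replicate 1 of Gal4/7 or replicate 2 of cantonS (0.050 to 0.060). Of 18 genes of early retinal differentiation, 15 were called lower (12 to 17 under the alternatives) and 0 higher in ato-/-. Of all genes, 10.1% were called lower there and 6.34% higher. With Gal4/7, 6 of the 18 were higher (5 to 7 under the alternatives) and 5 lower, where 1.96% and 0.526% of all genes were. With atoGal4, 2 were higher (0 to 5 under the alternatives) and 0 lower, where 0.0835% and 0.00835% of all genes were.

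The phototransduction genes are expressed in neurons, and the neuronal markers moved in the same samples. Of 6 such markers 5 were measured, and in ato-/- all 5 were called lower, with the log2 of their summed level between 9.38 and 10.47, against 11.47 to 11.98 in the controls. In Ato GOF the sum lay between 12.11 and 12.41, with 2 of 5 called higher with Gal4/7 and 0 of 5 with atoGal4, and in Sens GOF between 11.42 and 11.51, with 2 of 5 called lower. Whole discs were measured, so fewer photoreceptors and less RNA in each of them cannot be told apart, and the part of the neuronal markers in the values of *inaC* and *chp* was not tested. Both R8 markers, *sens* and *boss*, were called higher with Gal4/7 (median 2.48) and lower in ato-/- (median -1.83). With atoGal4 1 of the 2 was called higher, where 0.0835% of all genes were. Of 6 eye disc markers, a list that includes *ato* and *gl*, 3 were called lower in ato-/-. With Gal4/7, 1 of these 6 was called higher and 1 lower. Of 4 glial markers, 3 were called lower in ato-/- and 2 with Gal4/7. All 5 hemocyte markers were higher with Gal4/7 under an unadjusted p of 0.05, by 1.14 to 2.44 with a median of 1.58, and 2 of them were called. All 6 salivary gland markers (median -3.40) and all 3 fat body markers (median -1.72) were lower with Gal4/7. So were all 4 muscle markers (median -0.21), and none of these was called. In ato-/- 1 of the 5 hemocyte markers and 1 of 4 markers of brain neuroblasts were called lower. The summed level of 6 salivary gland markers varied from 8.04 to 16.71 and that of 4 muscle markers from 9.27 to 13.55 over the arrays, and in ato-/- none of the salivary gland and muscle markers nor of 3 fat body markers was called. Beside these marker counts, 10.1% of all genes were called lower in ato-/- and 2.21% lower in Sens GOF. With Gal4/7, 1.96% of all genes were called higher and 0.526% lower. The part of all these markers in the results was not tested.

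The genes most like each of the 3 genes called in a comparison with the 8 controls were listed by Pearson r over the 20 arrays, as a description. For *inaC* they were *phyl*, an adaptor of photoreceptor fate (r = 0.98), *E(spl)m4-BFM*, a Bearded-like inhibitor of Neuralized (0.98), and *twit* (0.98), with r of 0.90, 0.89 and 0.87 over the 17 arrays without ato-/-. For *chp* they were *E(spl)m5-HLH*, a Notch-induced repressor (0.95), *inaC* (0.95) and *CG31176* (0.95), with 0.86, 0.85 and 0.85 over the 17 arrays. The values for *rdgA* were lower, with *Smr* at 0.78, *Plc21C* at 0.78 and *Cpsf5* at 0.76. *phyl* itself was called higher with Gal4/7 and lower in ato-/-.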

How the data were processed

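Per the labels, RNA of each sample was hybridized to 1 Affymetrix Drosophila array. The deposited values are log2 levels from RMA (background correction, quantile normalization and a summary of the probes of each set), of which no version is stated. Array medians lay between 5.38 and 5.51. No detection flags were used, and the number of arrays limits the precision. After removal of 183 Affymetrix controls from 18952 probe sets, 18769 were tested. The platform annotation gives 1 gene for 13647 of these, several for 402 and none here for 4720. A gene was represented by its brightest probe set, by the mean over all arrays, that names only it (11982 genes, 1094 with more than 1).

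Comparisons were fitted in limma 3.58.1 (lmFit, eBayes; R 4.3.3) on the arrays compared, with no covariate, two-sided, and p-values were adjusted by Benjamini-Hochberg over all probe sets. The fits were tested on simulated data with known changes. The contrast of the drivers recovered 1.49% of 1.5-fold, 34.3% of 2-fold and 77.3% of 4-fold changes. Sens GOF against atoGal4 x UASato recovered 19.4% of 1.5-fold changes. Every comparison but that of the drivers recovered 77.6% to 94.0% of 2-fold changes. The simulated noise was taken from within lines and held no differences among control lines, whereas the real controls came from several lines. Recovery against the pooled controls can therefore be overstated, by an amount that was not tested. Plots used Python 3.11.15 and matplotlib 3.10.9. All measured members are named in every comparison. Of other pathway and retinal genes, up to 6 called ones with the largest change in a comparison qualify for naming, and *Pph13*, *elav*, *gl* and *trpl* were added outside that rule where it did not name them. The members and lists were chosen with earlier results of these data known. Replicate numbers were those of the titles, which for 1 array in each control line differ from the replicate field. The study's text names no controls for Ato LOF and Sens GOF, and all 8 were used. Alternatives were probe set and level filters, scaling, variance models, a joint fit, nearest controls, blocks, array weights, a t-test and leaving out each array. Promoter motifs were not searched, and no sequence was used here.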

Additional observations from a re-analysis of the deposited data

Results flagged for a closer look

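Of 22 groups of arrays examined (each measured probe set of these genes, over the 8 control arrays and over the 6 Ato GOF arrays), 1 held an array far from the others. The value of *rdgA* at probe set 1641349_at was 7.31 on replicate 2 of the Gal4/7 controls, the lowest of the 8 controls, with a gap to its nearest neighbour of 0.593 of the whole range. Chance gives such an array in about 1 of 20 groups. The 2 Gal4/7 controls were also the least alike of any pair of one line, with r = 0.960 over all probe sets, and the cause was not tested.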

How the results depend on the processing

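Depth in the sense of signal over background could not be assessed, since only normalized values were used, and the 2 arrays of each control line limit the precision. The calls of *inaC* and *chp* with Gal4/7 and in ato-/-, and of *inaC* over both drivers, held in every alternative run, with highest adjusted p of 0.00996 and 0.043 with Gal4/7, 0.013 and 0.018 in ato-/- and 0.047 over both drivers. Of 1256 values of the 8 genes under the alternatives, 45 lost a call, 15 gained one and 0 turned a called value round, and 42 uncalled values changed sign. With 1 fit of all 20 arrays, 1 gene was called higher with atoGal4, 2 over both drivers, and 1 lower in Sens GOF against atoGal4 x UASato. Array weights gave 1 higher with atoGal4 and 3 lower in Sens GOF. Scaling to 1 median, the nearest controls and averaging Sens GOF arrays 1 and 2 each gave 0 lower in Sens GOF. The replicate numbers were not taken to pair the arrays. The deviations of same-numbered arrays had a correlation above 0.1 in 27 of 62 pairs, from -0.40 to 0.53. Such pairs among the 4 control lines and Gal4/7 x UASato were all positive (0.0035 to 0.53), and pairs with the other lines had both signs. In a line of 2 arrays the deviations mirror each other, so the 62 values are not independent. Whether arrays of a number shared a batch was not tested. Against atoGal4 x UASato 0 were called lower with averaging, with the t-test and with the replicate block, which moved no other count of these genes by over 1.5 times. Of the other genes named, the block also lost the calls of *rdgB* with Gal4/7 (adjusted p = 0.11) and in ato-/- (0.10) and of *elav* (0.055) and *gl* (0.12) in Sens GOF. With trend and robust variances 1 gene was higher in the contrast of the drivers. Leaving out each array gave 0 to 1 higher in ato-/- and 0 to 1 lower in Sens GOF. It also gave 0 to 3 lower against atoGal4 x UASato and 0 to 1 higher in the contrast of the drivers. The share of all genes called was not counted under the alternatives, so these counts have no such share beside them. The cause of each change was not tested.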
